A study of Mus musculus with 6 samples.

Results

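The genes described are the collagens, the secreted and membrane-bound proteins that form the fibres and sheets of the extracellular matrix. Members were all rows of the deposited table whose mouse gene symbol is Col, a number, the letter a and a number, and 44 of 54385 rows met that rule. They were measured in the interscapular brown fat depot (iBAT), which burns lipid for warmth, from C57BL/6N mice at 20 weeks of age. All mice had eaten chow to 8 weeks of age, then a high-fat diet (D12492) for 12 weeks, and were held at 4 °C for 24 h. One group of 3 libraries was wild type (wt/wt) and 3 libraries carried the ADCY3∆AT genotype, which removes Adcy3-AT, a truncated form of the cyclic AMP-making enzyme adenylyl cyclase 3. The labels do not say how the allele was made or whether each library is a separate animal, so p-values measure the spread between these libraries, which may be technical. The series design names an inguinal depot, while the sample labels name an interscapular one and were followed.

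A collagen chain carries long stretches of the repeat Gly-X-Y, a glycine followed by a pair of other residues, and chains wind around each other into a rope-like helix that cells secrete and crosslink. Fibrillar collagens pack into tensile fibrils, with types I and III as the bulk and types V and XI as minor chains that nucleate fibrils and limit their width. Type IV forms the meshwork of basement membranes, and types XV and XVIII sit in the zone where basement membrane meets the tissue. Type VI makes beaded filaments between basement membrane and fibrils. In fat, each adipocyte and each capillary is wrapped in basement membrane, and the fibrillar collagens come mainly from fibroblasts and progenitors.

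The repeat that defines the family could be read from the coding sequences of all 44 genes (longest complete coding transcript of each, GENCODE M21, GRCm38). Glycine codons are the codons that begin with GG, and a run was counted where they opened each of at least 5 successive triplets of codons. The 11 fibrillar genes had a longest run of 216 to 344 triplets, with a median of 338, and the 8 basement membrane genes of 30 to 66 triplets. Fibrillar repeats were also cut into coding exons of 54 bases, of which each gene had 21 to 33, against 1 to 3 in the basement membrane genes. Such exons were not particular to fibrillar genes, since fibril-associated genes had 4 to 28, with Col22a1 at 28. Basement membrane chains broke the repeat often, with 11 to 27 separate runs per gene against 2 or 3 in the fibrillar genes. The stretches below are 54 bases each, coding strand, 5′ to 3′, with the glycine codons of the repeat in capitals. They show the unbroken start of the long run in a major (Col1a2) and a minor (Col5a3) fibrillar chain, and the point where the longest run ends in Col4a1 and Col15a1.
Col1a2: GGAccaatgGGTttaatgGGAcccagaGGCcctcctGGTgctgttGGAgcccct
Col5a3: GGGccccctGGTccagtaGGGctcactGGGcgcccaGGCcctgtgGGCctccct
Col4a1: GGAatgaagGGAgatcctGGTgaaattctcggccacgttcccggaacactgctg
Col15a1: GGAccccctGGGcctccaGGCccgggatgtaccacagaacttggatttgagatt
The fibrillar stretches hold 6 glycine codons in step. In Col4a1 and Col15a1 only the first 3 are in step, and the 9 codons that follow do not continue the repeat.

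**Figure D1:**
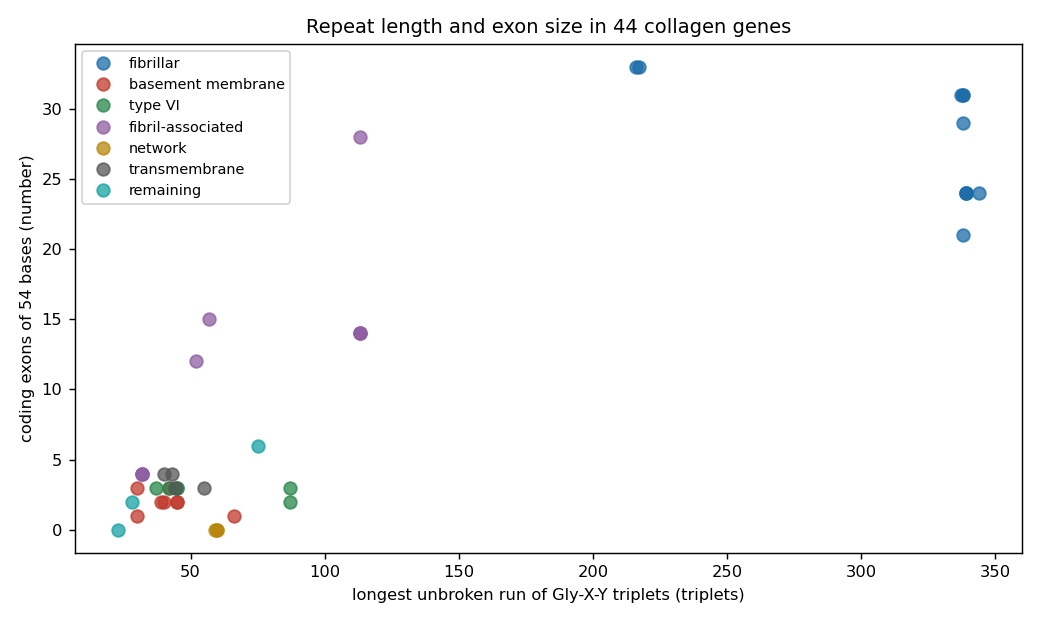
Each point is 1 of the 44 collagen genes, with the longest unbroken run of Gly-X-Y triplets on the x axis, the number of coding exons of 54 bases on the y axis, and colour for the class. Fibrillar genes stand apart at 216 to 344 triplets, and basement membrane genes lie at 30 to 66 triplets with 1 to 3 such exons.

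Library totals ran from 44826777 to 54933588 estimated counts. Levels below are TMM-normalised CPM, counts scaled to a common library size. The targeted gene Adcy3 stood at 652 to 728 CPM across wild type and at 342 to 506 CPM across ADCY3∆AT, without overlap. Its log2 fold change was -0.78 ± 0.14 (SE), with an adjusted p of 0.158 in edgeR and 4.26e-07 in DESeq2. A row absent from GENCODE M21, ENSMUSG66666620654, was at 477 to 629 CPM in wild type and listed at 0 in all 3 ADCY3∆AT libraries. Its last digits are those of the Adcy3 identifier, ENSMUSG00000020654, and what it measures was not tested. It was the only row past the threshold in edgeR (adjusted p = 7.9e-06). All 10 brown adipocyte markers, Ucp1 and Cidea among them, were present in every library, with a summed level of 19801 to 19859 CPM in wild type and 18780 to 19244 CPM in ADCY3∆AT. Ucp1 alone held 9972 to 10647 CPM. Of the 10, 7 had a negative fold change, beside 8890 of 18114 genes tested. Without overlap 3 were lower, beside 8.83% of all genes: Ucp1 (-0.06 ± 0.04, SE), Elovl3 (-0.38 ± 0.11) and Dio2 (-0.75 ± 0.25). DESeq2 called 1 of the 10, Elovl3 (adjusted p = 0.0332), beside 1.15% of all genes. Skeletal muscle markers stood apart by genotype, with sums of 1297 to 3882 CPM across wild type, against 7.98, 241 and 501 CPM for ADCY3∆AT replicates 1, 2 and 3. All 12 of these markers lay lower in every ADCY3∆AT library, beside 8.83% of all genes tested, and none was at 0 in every library.

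Collagens made up 0.250 to 0.330% of a library. Col4a1 and Col4a2, the chains of the ubiquitous form of type IV, alone held 70.0 to 73.7% of all collagen counts. Fibrillar genes held 15.9 to 18.1% and type VI held 6.43 to 7.23%. Between genes, levels were compared per kb of annotated exon. Col4a1 stood first at 166 CPM per kb (149 to 191 over the 6 libraries) and Col4a2 next at 122 (113 to 135), with ranges that do not meet. Col3a1 followed at 18.8 CPM per kb (15.1 to 23.0), then Col6a1 at 12.5 (10.2 to 14.9), whose library ranges do not meet either. Col6a3 came next at 8.12 (7.01 to 9.69), below the range of Col6a1. From Col6a3 to Col6a2 the ranges of neighbours overlapped, with Col27a1 at 7.63, Col5a3 at 5.80, Col1a2 at 5.49, Col15a1 at 5.22 and Col6a2 at 5.08 CPM per kb. Col1a1, a chain of the most abundant collagen of skin and bone, stood at rank 12 with 3.64 CPM per kb. Levels and order depended on the length used. Per kb of the longest transcript the first 4 genes kept their ranks, with Col3a1 at 33.2, but Col27a1 (13.1) and Col1a2 (12.8) then stood above Col6a3 (9.61), and Col6a2 stood at 8.61 CPM per kb.

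The filter on low counts passed 31 of the 44 genes. The other 13 had means of 0.00607 to 0.194 CPM and at most 17 counts in any library, and 7 of them had at least 1 library at 0. They were the cartilage collagens Col2a1, Col9a1, Col9a2, Col9a3 and Col11a1, the fibrillar Col24a1, the type IV chain Col4a6, the type VI chains Col6a4 and Col6a5, the network collagen Col8a2, the fibril-associated Col22a1, and the transmembrane Col17a1 and Col25a1. Cartilage markers were low too, with 6 of 7 under 1 CPM in every library, as were 5 of 6 keratinocyte markers, with Krt5 at 0 in all.

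**Figure D2:**
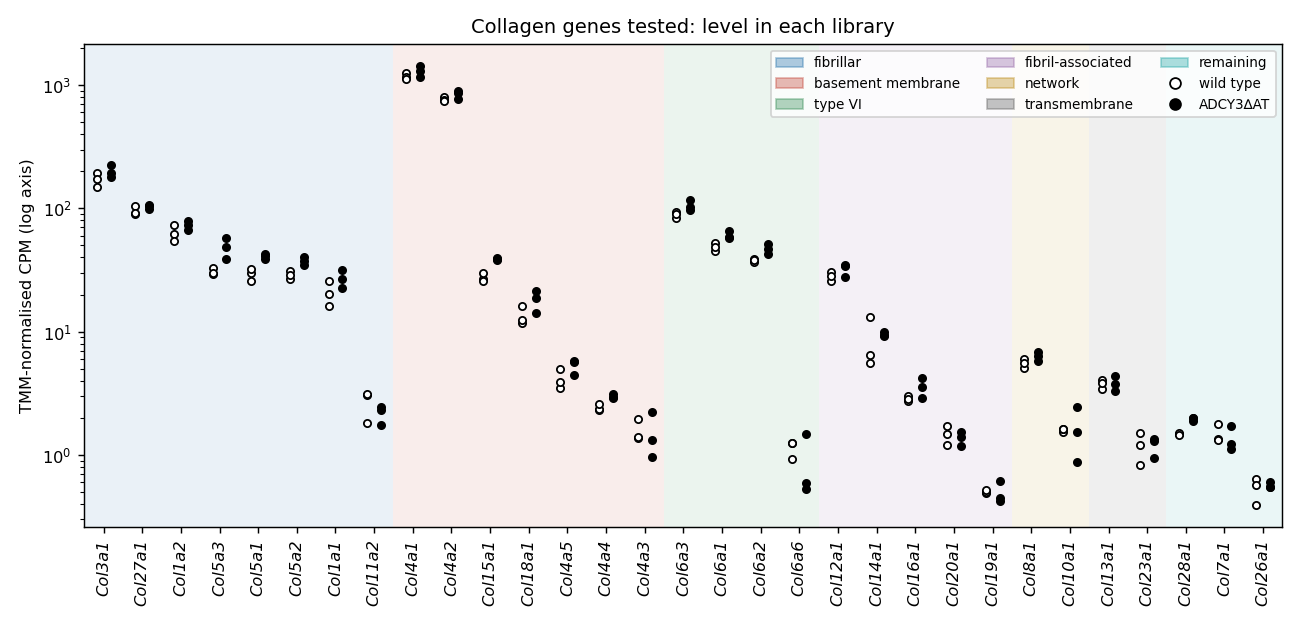
Level of the 31 tested collagen genes in each library, in TMM-normalised CPM on a log axis, with wild type as open and ADCY3∆AT as filled circles and background colour for the class. Col4a1 and Col4a2 lie above all others, at 746 to 1429 CPM, and the filled circles clear the open ones for type V, Col15a1 and most type VI genes.

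The comparison asks how collagen transcripts of cold-exposed brown fat differ when the AT form is missing. Most tested collagens lay higher in ADCY3∆AT, by small amounts, while the summed level of all collagens, held mostly by Col4a1 and Col4a2, overlapped between genotypes. That sum was 2797 CPM for wild-type replicate 1, above the 2777 CPM of ADCY3∆AT replicate 1. Replicates 2 and 3 held 2595 and 2616 CPM without the allele, against 3039 and 3240 CPM with it. All genes were read in the same 6 libraries, so their signs are not independent of each other. Differences between genotypes are given as log2 fold changes of ADCY3∆AT over wild type, with the SE from edgeR. Of the 31 tested genes 25 had a positive fold change, against 50.9% of all 18114 genes tested, and their median log2 fold change was 0.19, against 0.0039 for all genes. No collagen passed an adjusted p of 0.05 in edgeR's quasi-likelihood test, which called 0.00552% of all genes (a single row, ENSMUSG66666620654). At an unadjusted p under 0.05 there were 9 higher, beside 5.23% of all genes, and 0 lower, beside 5.78%. Every ADCY3∆AT library lay above every wild-type library for 9 genes, beside 7.68% of all genes, and below for 0, beside 8.83%. DESeq2 called 6 collagens higher, Col15a1, Col5a1, Col5a2, Col5a3, Col6a1 and Col6a2, and 0 lower, beside 0.441% of the 19977 genes it tested called higher and 1.15% called in either direction. limma voom called 0 collagens and 0.011% of all genes. With no filter on low counts, edgeR called 4 of the 6 that DESeq2 called, Col15a1 and the type V genes, beside 0.697% of all genes. In bulk tissue, more cells of a collagen-making type and more RNA per cell cannot be told apart.

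Genes were then divided by level. All 15 collagens with a mean of at least 10 CPM had a positive fold change, beside 46.6% of all genes at that level, and their median log2 fold change was 0.31. Of these 15, 8 were higher at an unadjusted p under 0.05, beside 6.61%, and 7 had groups that did not overlap, beside 8.4%. Among the 16 tested collagens below that level 10 had a positive fold change, beside 50.9% of all genes tested at any level, and the median was 0.03. Of these 16, 1 was higher at an unadjusted p under 0.05, beside 5.23%, and 2 were higher without overlap, beside 7.68%. This split was chosen after the values had been seen.

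**Figure D3:**
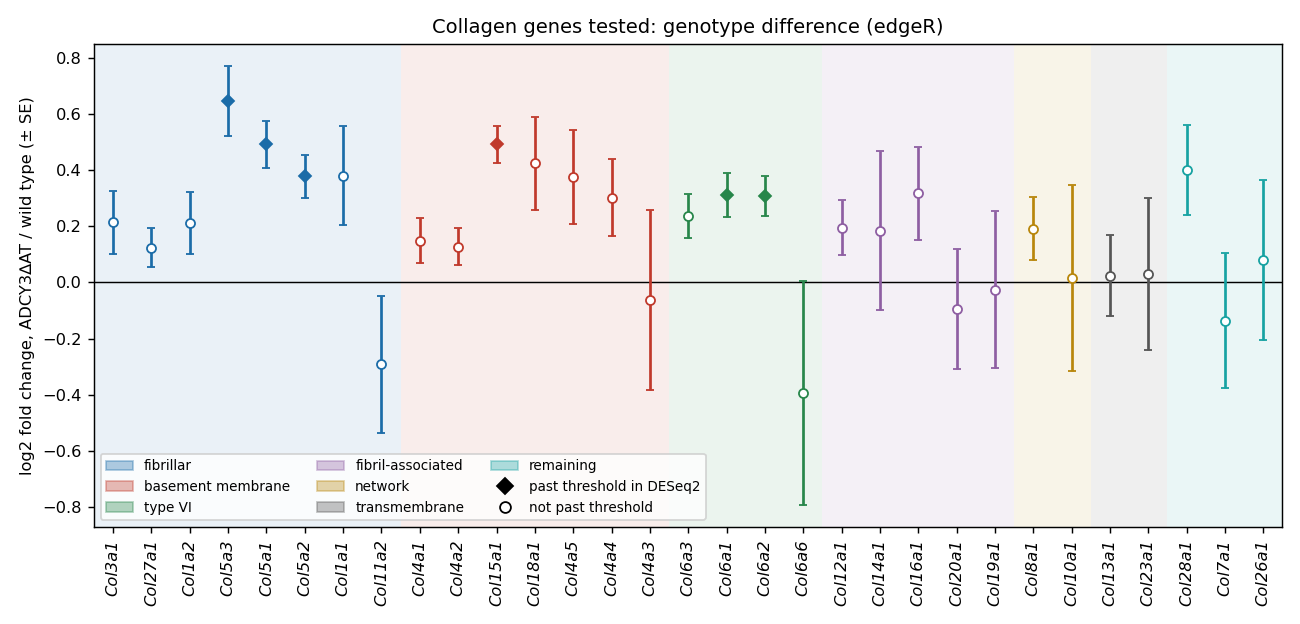
Log2 fold change (ADCY3∆AT over wild type, edgeR, bars ± SE) of the 31 tested collagen genes by class, with diamonds for the 6 past the threshold in DESeq2. Type V, Col15a1, Col6a1, Col6a2 and Col6a3 lie between 0.24 and 0.65, and 25 of the 31 points lie above 0.

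Type V, the minor fibrillar collagen that starts and thins fibrils, lay higher in ADCY3∆AT in all 3 of its genes, without overlap of the groups. Of the 8 tested fibrillar genes 7 had a positive fold change, beside 50.9% of all genes. The type V genes were the only 3 of the 8 higher without overlap, beside 7.68% of all genes. Col5a3 (ENSMUSG00000004098, chromosome 9, 20770050 to 20815067, minus strand, GRCm38) had wild-type levels of 33.1, 29.5 and 29.8 CPM and ADCY3∆AT levels of 48.4, 57.1 and 39.2 CPM. Every ADCY3∆AT library exceeded every wild-type library, and ADCY3∆AT replicate 3 was the closest to wild type. Its log2 fold change was 0.65 ± 0.12 (SE), the largest of any tested collagen (edgeR adjusted p = 0.158, DESeq2 adjusted p = 0.000117). Without ADCY3∆AT replicate 3 it was 0.78 and passed in edgeR (adjusted p = 0.0303), in a fit that called 69 genes. Col5a1 (ENSMUSG00000026837, chromosome 2, 27886425 to 28039514, plus strand), which encodes the chain found in most type V molecules, had wild-type levels of 30.1, 25.5 and 32.1 CPM and ADCY3∆AT levels of 41.4, 42.8 and 39.2 CPM. These groups did not overlap and differed by 0.49 ± 0.08 (SE; edgeR adjusted p = 0.15, DESeq2 adjusted p = 0.000364). Col5a2, the partner of the Col5a1 chain, had wild-type levels of 31.0, 26.5 and 29.1 CPM and ADCY3∆AT levels of 34.97, 40.2 and 37.4 CPM. It differed by 0.38 ± 0.08 (SE), again without overlap (edgeR adjusted p = 0.166, DESeq2 adjusted p = 0.0106).

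The major fibrillar genes also lay higher, with overlapping groups. Col3a1, the type III chain of pliable tissues, had wild-type levels of 192, 149 and 172 CPM and ADCY3∆AT levels of 178, 192 and 226 CPM. Its log2 fold change was 0.21 ± 0.11 (SE), with an unadjusted p of 0.0913 in edgeR. Col1a2, a type I chain, had wild-type levels of 61.6, 54.5 and 73.6 CPM and ADCY3∆AT levels of 67.3, 72.8 and 79.6 CPM, a difference of 0.21 ± 0.11 (SE). Its partner Col1a1 had wild-type levels of 16.2, 20.2 and 25.9 CPM and ADCY3∆AT levels of 22.6, 26.7 and 31.8 CPM, a difference of 0.38 ± 0.18 (SE), and wild-type replicate 3 lay above ADCY3∆AT replicate 1. Col3a1 and Col5a2 are neighbours on chromosome 1, Col3a1 on the plus strand from 45311538 to 45349706 and Col5a2 on the minus strand from 45374321 to 45503282. Whether type V differed more than type I or III was tested only through the ratio of Col5a1 to Col1a1, given below.

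The remaining tested fibrillar genes, like the major ones, did not pass in edgeR or DESeq2. Col27a1, a fibrillar chain of cartilage and developing tissues, was the second most abundant fibrillar gene here by CPM, with wild-type levels of 89.2, 104 and 92.1 CPM and ADCY3∆AT levels of 107, 99.0 and 105 CPM, a log2 fold change of 0.12 ± 0.07 (SE) and overlapping groups. Col11a2, a minor chain of cartilage fibrils, had wild-type levels of 1.82, 3.04 and 3.13 CPM and ADCY3∆AT levels of 2.43, 2.34 and 1.74 CPM and was the only tested fibrillar gene with a negative value, -0.29 ± 0.24 (SE).

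Col15a1 (ENSMUSG00000028339, chromosome 4, 47208161 to 47313167, plus strand) encodes type XV, a proteoglycan-like collagen of the basement membrane zone around capillaries, fat cells and muscle fibres. It had wild-type levels of 26.7, 25.9 and 30.03 CPM and ADCY3∆AT levels of 37.9, 38.8 and 39.4 CPM. The 3 ADCY3∆AT values lay close together and all above wild type, with means of 27.5 ± 2.20 CPM for wild type and 38.7 ± 0.740 CPM for the ADCY3∆AT libraries (SD, n = 3 each). Its log2 fold change of 0.49 ± 0.07 (SE) had the lowest unadjusted p of any collagen (5.82e-05), with edgeR adjusted p = 0.141 and DESeq2 adjusted p = 1.5e-05. Col18a1, the related type XVIII chain and the source of the fragment endostatin, had wild-type levels of 11.8, 12.4 and 16.1 CPM and ADCY3∆AT levels of 18.8, 21.3 and 14.1 CPM. ADCY3∆AT replicate 3 lay below wild-type replicate 3, and the difference was 0.42 ± 0.17 (SE; edgeR unadjusted p = 0.0323, adjusted p = 0.408). A gene on the opposite strand, Slc19a1, overlaps Col18a1.

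The abundant genes of the type IV network had small fold changes and overlapping groups. Col4a1 had wild-type levels of 1250, 1153 and 1115 CPM and ADCY3∆AT levels of 1170, 1304 and 1429 CPM, a log2 fold change of 0.15 ± 0.08 (SE). Col4a2 had wild-type levels of 805, 759.7 and 746 CPM and ADCY3∆AT levels of 774, 857 and 894 CPM, a difference of 0.13 ± 0.07 (SE). In both, ADCY3∆AT replicate 1 lay below wild-type replicate 1 and replicate 3 was highest. The chains of the restricted type IV networks were scarce. Col4a5 had wild-type levels of 3.46, 3.93 and 4.94 CPM and ADCY3∆AT levels of 5.71, 5.81 and 4.48 CPM, a difference of 0.38 ± 0.17 (SE), and wild-type replicate 3 lay above ADCY3∆AT replicate 3. Col4a4 had wild-type levels of 2.30, 2.36 and 2.58 CPM and ADCY3∆AT levels of 2.93, 3.11 and 2.88 CPM, groups that did not overlap and a difference of 0.30 ± 0.14 (SE; edgeR unadjusted p = 0.0593). Col4a3, its head-to-head neighbour, had wild-type levels of 1.37, 1.41 and 1.97 CPM and ADCY3∆AT levels of 2.25, 1.32 and 0.968 CPM, with a log2 fold change of -0.06 ± 0.32 (SE). In all, 6 of 7 tested basement membrane genes had a positive fold change, beside 50.9% of all genes. At an unadjusted p under 0.05, 2 were higher, beside 5.23% of all genes.

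The bases just upstream of the start sites are shown for Col5a1, Col5a3 and Col15a1, the 3 collagens with the lowest p-values, a basement membrane gene beside fibrillar ones. Each run is 250 bases from RefSeq (GRCm38.p6), on the gene's own strand, 5′ to 3′, ending at the base before the start annotated there. The Col15a1 window ends at 47208011, upstream of and not adjoining the GENCODE start of 47208161 given above. Capitals mark the letters CCAAT and GGGCGG on either strand, and TATAAA was searched as well.
Col5a1, chr2:27886175-27886424, plus strand: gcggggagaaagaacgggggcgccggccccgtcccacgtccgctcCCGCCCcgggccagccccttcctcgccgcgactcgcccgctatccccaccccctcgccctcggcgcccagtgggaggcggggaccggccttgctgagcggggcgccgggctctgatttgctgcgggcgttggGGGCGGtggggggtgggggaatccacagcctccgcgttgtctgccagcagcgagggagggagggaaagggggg
Col5a3, chr9:20815068-20815317, minus strand: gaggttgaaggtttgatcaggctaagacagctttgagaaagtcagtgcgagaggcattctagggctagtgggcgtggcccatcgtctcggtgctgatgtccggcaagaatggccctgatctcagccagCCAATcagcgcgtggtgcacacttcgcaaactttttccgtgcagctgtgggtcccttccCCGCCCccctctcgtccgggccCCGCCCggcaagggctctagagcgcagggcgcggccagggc
Col15a1, chr4:47207762-47208011, plus strand: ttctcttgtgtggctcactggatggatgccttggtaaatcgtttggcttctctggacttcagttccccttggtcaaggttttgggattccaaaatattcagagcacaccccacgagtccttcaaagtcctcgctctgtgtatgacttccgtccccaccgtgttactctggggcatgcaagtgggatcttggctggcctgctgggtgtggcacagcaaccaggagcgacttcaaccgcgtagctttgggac
Col5a1 holds GGGCGG and neither other motif, Col5a3 holds GGGCGG and CCAAT, and Col15a1 holds none of them. GC content was 76.4%, 62.8% and 53.6%. Among 38 such windows of 35 collagens, 22 (57.9%) held GGGCGG, 13 (34.2%) held CCAAT and 5 (13.2%) held TATAAA, beside 32.7%, 33.8% and 12.4% of 32851 windows of all genes. Median GC content was 59% in the collagen windows and 52.4% in all windows, and its part in the share of GGGCGG was not tested. The other 9 collagens were not matched.

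Type VI collagen forms a heterotrimer of the Col6a1, Col6a2 and Col6a3 chains, and these genes lay higher together. Col6a1 had wild-type levels of 52.8, 44.7 and 48.7 CPM and ADCY3∆AT levels of 57.9, 58.2 and 65.5 CPM, a log2 fold change of 0.31 ± 0.08 (SE; edgeR adjusted p = 0.226, DESeq2 adjusted p = 0.0492). Col6a2 had wild-type levels of 38.5, 37.0 and 37.8 CPM and ADCY3∆AT levels of 42.5, 46.6 and 51.2 CPM, a difference of 0.31 ± 0.07 (SE; edgeR adjusted p = 0.209, DESeq2 adjusted p = 0.0456). Col6a3, whose cleaved end is the fragment endotrophin studied in obese fat, had wild-type levels of 93.6, 83.8 and 89.9 CPM and ADCY3∆AT levels of 96.3, 103 and 116 CPM. It differed by 0.24 ± 0.08 (SE) and passed in neither tool (edgeR adjusted p = 0.334, DESeq2 adjusted p = 0.222). No group overlapped for these 3 genes, of 4 tested in the class, beside 7.68% of all genes higher without overlap. ADCY3∆AT replicate 3 was the highest library in each of the 3. Col6a6, an alternative chain, had a negative log2 fold change of -0.39 ± 0.40 (SE), with wild-type levels of 0.929, 1.25 and 1.25 CPM and ADCY3∆AT levels of 0.590, 0.528 and 1.48 CPM and wide overlap.

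Of the 5 tested fibril-associated collagens, which decorate fibril surfaces, 0 had an unadjusted p under 0.05. Among all genes tested 5.23% were higher and 5.78% lower at that p. Col12a1 had wild-type levels of 25.9, 30.3 and 28.5 CPM and ADCY3∆AT levels of 34.1, 35.01 and 27.8 CPM, a log2 fold change of 0.19 ± 0.10 (SE) with ADCY3∆AT replicate 3 among the wild-type values. Col14a1 had wild-type levels of 6.51, 5.56 and 13.2 CPM and ADCY3∆AT levels of 9.18, 9.45 and 10.03 CPM. Its spread lay within wild type, where replicate 3 held more than either other library, and the difference was 0.18 ± 0.28 (SE). Col16a1 had wild-type levels of 3.01, 2.75 and 2.84 CPM and ADCY3∆AT levels of 2.91, 3.58 and 4.24 CPM, with a log2 fold change of 0.32 ± 0.17 (SE). Col20a1 had wild-type levels of 1.20, 1.70 and 1.49 CPM and ADCY3∆AT levels of 1.53, 1.18 and 1.40 CPM, with a log2 fold change of -0.09 ± 0.21 (SE). Col19a1 lay at 0.427 to 0.612 CPM in all libraries, with a log2 fold change of -0.03 ± 0.28 (SE).

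The last classes were scarce. Col8a1, a short-chain collagen of vessel walls, had wild-type levels of 6.03, 5.11 and 5.56 CPM and ADCY3∆AT levels of 5.82, 6.89 and 6.37 CPM, a difference of 0.19 ± 0.11 (SE). Col10a1 had wild-type levels of 1.55, 1.64 and 1.62 CPM and ADCY3∆AT levels of 2.45, 1.52 and 0.882 CPM, with a log2 fold change of 0.02 ± 0.33 (SE). It overlaps Nt5dc1 on the opposite strand. Col1a2, Col4a1, Col4a2, Col4a3, Col5a2, Col18a1 and Col20a1 also overlap another annotated gene with reads, on the same strand for Col1a2, Col5a2 and Col20a1 and on both strands for Col4a1. Whether counting used strand is not stated, so the values of these genes are uncertain where reads could be assigned to either gene. The transmembrane Col13a1 of muscle synapses had wild-type levels of 4.03, 3.43 and 3.81 CPM and ADCY3∆AT levels of 3.76, 3.33 and 4.37 CPM, with a log2 fold change of 0.02 ± 0.14 (SE). Col23a1, of the same class, had wild-type levels of 1.20, 1.499 and 0.831 CPM and ADCY3∆AT levels of 1.36, 1.3 and 0.947 CPM, with a log2 fold change of 0.03 ± 0.27 (SE). Col28a1, reported around Schwann cells of peripheral nerve in mice, had wild-type levels of 1.48, 1.52 and 1.47 CPM and ADCY3∆AT levels of 1.90, 1.99 and 2. CPM. These groups did not overlap, and the difference was 0.40 ± 0.16 (SE; edgeR unadjusted p = 0.0359, adjusted p = 0.414). In the same libraries 6 of 7 Schwann cell markers had a negative fold change, beside 8890 of 18114 genes tested. The relation of Col28a1 to these cells was not tested. The anchoring fibril gene Col7a1 had wild-type levels of 1.35, 1.79 and 1.33 CPM and ADCY3∆AT levels of 1.73, 1.12 and 1.23 CPM, with a log2 fold change of -0.14 ± 0.24 (SE). Col26a1 had wild-type levels of 0.638, 0.568 and 0.394 CPM and ADCY3∆AT levels of 0.547, 0.549 and 0.603 CPM, with a log2 fold change of 0.08 ± 0.28 (SE).

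The libraries could be read against each other over all 31 genes. ADCY3∆AT replicate 3 was the highest library for 13 of them, replicate 2 for 8 and replicate 1 for 4, and the wild-type libraries for 1, 3 and 2. Wild-type replicate 2 was lowest for 12. The median deviation from each gene's mean was -0.12, -0.18 and -0.09 on the log2 scale for wild type, beside 0.09, 0.10 and 0.15 for the ADCY3∆AT libraries. The genes did not share 1 order of the ADCY3∆AT libraries. Replicate 3 was the highest of them for Col1a1, Col1a2, Col3a1, Col4a1, Col4a2 and the main type VI genes, and the lowest for Col5a1, Col5a3, Col12a1 and Col18a1.

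**Figure D4:**
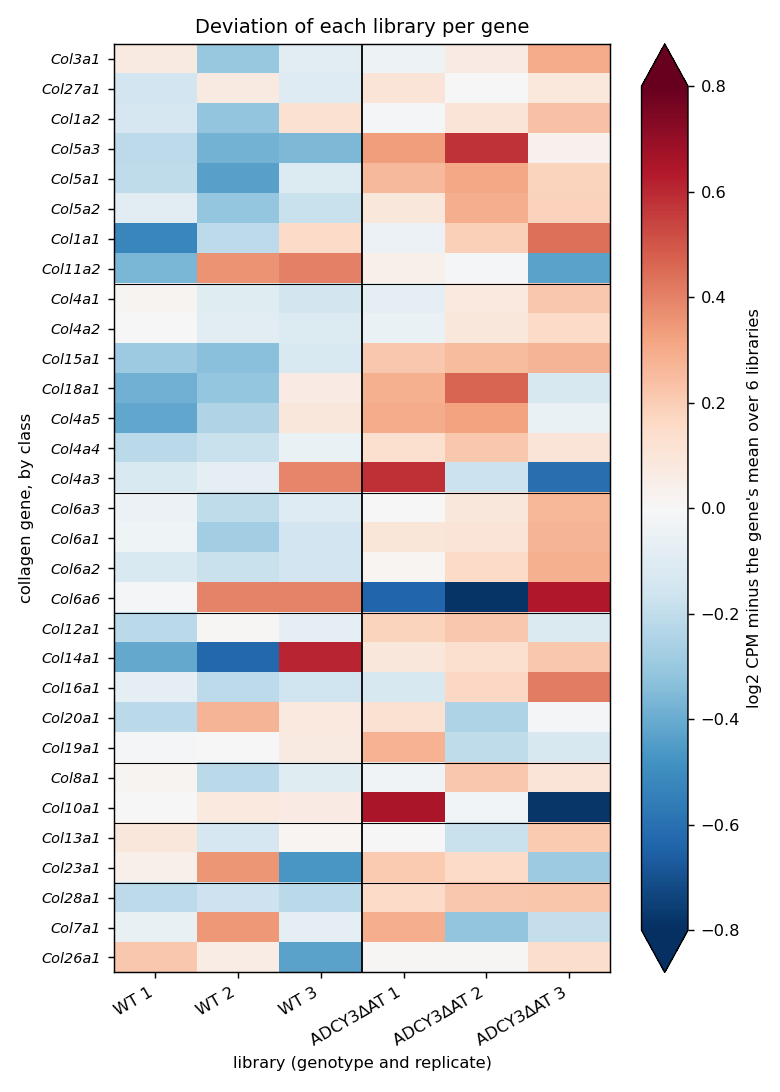
Log2 CPM of each tested collagen gene minus its mean over the 6 libraries, with genes in rows by class, libraries in columns and red for higher values. The 3 ADCY3∆AT columns are mostly red, with 21, 22 and 21 of the 31 genes above their mean, against 8, 10 and 12 in wild type.

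Markers of other cells differed in level too, and none of the endothelial, fibroblast, macrophage, mural or muscle markers was at 0 in all libraries. Endothelial markers summed to 1173 to 1247 CPM in wild type and 1255 to 1347 CPM in ADCY3∆AT. Of these 10 markers 8 were positive, 5 were higher without overlap, 4 were higher at an unadjusted edgeR p under 0.05 and 1 was called by DESeq2. The shares of all genes, for these and the following lists, were 50.9% positive, 7.68% higher without overlap and 5.23% higher at that p. DESeq2 called 0.441% of all genes it tested higher. Fibroblast and progenitor markers summed to 317 to 378 CPM and 357 to 370 CPM, with 9 of 12 positive, a median log2 fold change of 0.07 and 1 at an unadjusted edgeR p under 0.05. That gene was Fbn1, the microfibril protein fibrillin, at 0.33 ± 0.14 (SE), without overlap of the groups. The list ran from -0.13 ± 0.10 (SE) for Dcn, the proteoglycan decorin, to 0.54 ± 0.27 (SE) for Thy1, a surface marker of fibroblasts, and both of these overlapped between groups. Macrophage markers summed to 99.4 to 158 CPM and 113 to 170 CPM, with 6 of 7 positive. Mural cell markers summed to 601 to 665 CPM and 634 to 738 CPM, with 5 of 8 positive. In each of these 2 lists 1 marker was higher without overlap and at an unadjusted edgeR p under 0.05. All 12 muscle markers were negative, with a median log2 fold change of -3.17. The part of these cells in the collagen differences was not tested.

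Ratios between chains of 1 molecule were taken in each library. The ratio of Col4a1 to Col4a2 per kb of exon was 1.33 to 1.42 over the 6 libraries. These genes are transcribed away from each other on chromosome 8, where Col4a1 (11198423 to 11312826, minus strand) and Col4a2 (11312805 to 11449287, plus strand) overlap at their starts. Col6a1 stood at 2.29 to 2.61 times Col6a2 and at 1.46 to 1.64 times Col6a3. The log2 ratio of Col6a1 to Col6a3 was 0.58 ± 0.04 for wild type against 0.66 ± 0.05 for ADCY3∆AT (SD, n = 3 each), without overlap, with p = 0.1 by a two-sided exact permutation test, the lowest value that 3 against 3 libraries can reach (adjusted p = 1 over 10 ratios). Col5a1 stood at 1.09 to 1.34 times Col5a2 per kb of exon, but at 0.760 to 0.934 times Col5a2 per kb of the longest transcript, so the order of these chains turned with the length used. Col5a1 stood at 0.601 to 0.862 times Col5a3. In type I the chains stood apart, with Col1a1 at 0.499 to 0.756 of Col1a2, although type I protein holds more of the Col1a1 chain. The ratio of Col1a1 to Col1a2 was 0.238 to 0.360 per kb of the longest transcript.

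Ratios between chains of different molecules were taken the same way. The log2 ratio of Col5a1 to Col1a1 was 0.52, -0.03 and -0.07 for wild type, beside 0.50, 0.31 and -0.07 for ADCY3∆AT, a difference of 0.11 ± 0.25 (SE; exact permutation p = 1.0). Col3a1 stood at 4.43 to 7.93 times Col1a1, with the highest value in wild-type replicate 1, where Col1a1 was lowest. Col15a1 stood at 2.02 to 3.08 times Col18a1. Exact permutation p-values of the 10 ratios ran from 0.1 to 1.0, and each was 1 when adjusted over the 10.

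**Figure D5:**
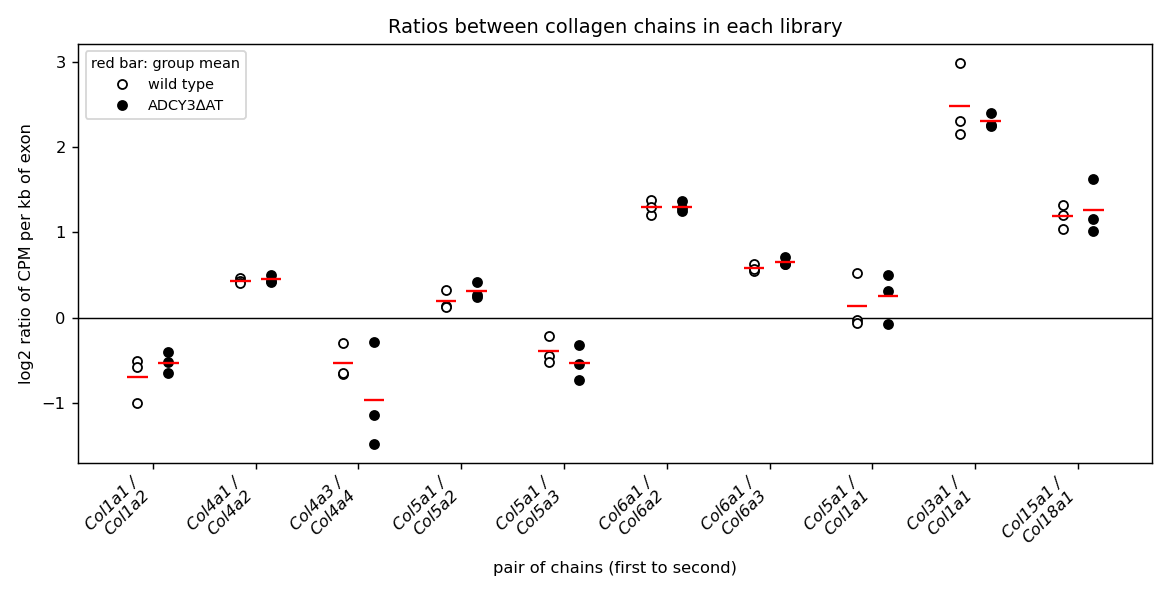
Log2 ratio of CPM per kb of exon for 10 pairs of collagen chains in each library, open circles for wild type, filled circles for ADCY3∆AT and red bars for group means. Col4a1 to Col4a2 and both type VI ratios are tight, while Col4a3 to Col4a4 and Col5a1 to Col1a1 spread widely within a genotype.

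Genes that modify, cut, crosslink, bind or degrade collagen were described from lists. Among 17 tested genes of chain modification and folding 10 were positive, beside 50.9% of all genes, and the median log2 fold change was 0.03. Of the 17, 2 were higher at an unadjusted p under 0.05 in edgeR, beside 5.23% of all genes. These were Plod2, a lysyl hydroxylase, with wild-type levels of 6.41, 4.45 and 6.41 CPM and ADCY3∆AT levels of 9.75, 8.39 and 6.48 CPM (0.51 ± 0.19), and P4ha2, a prolyl hydroxylase subunit (0.23 ± 0.09). Serpinh1, the collagen chaperone HSP47, differed by 0.07 ± 0.08 (SE). Of 5 crosslinking enzymes 3 were positive, beside 50.9% of all genes, and the median of 0.37 is the value of Loxl2 itself. Loxl2 had wild-type levels of 9.33, 9.52 and 10.1 CPM and ADCY3∆AT levels of 13.1, 12.8 and 11.6 CPM, without overlap, a difference of 0.37 ± 0.08 (SE; edgeR adjusted p = 0.183, DESeq2 adjusted p = 0.0847). Lox, lysyl oxidase, had wild-type levels of 24.9, 20.8 and 24.0 CPM and ADCY3∆AT levels of 35.2, 32.7 and 25.0 CPM, also without overlap, a difference of 0.41 ± 0.13 (SE; edgeR adjusted p = 0.312, DESeq2 adjusted p = 0.0926). The related Loxl1 differed by -0.01 ± 0.05 (SE) and Loxl3 by -0.03 ± 0.15 (SE). The scarce Loxl4, at 0.136 to 0.667 CPM over the 6 libraries, differed by 0.46 ± 0.48 (SE).

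Most members of the other lists lay higher by small amounts, and none passed in edgeR or DESeq2. Their counts of positive genes stand beside 50.9% of all genes tested. Procollagen cleavage had 6 of 7 positive with a median of 0.22, and the lowest p-values belonged to the amino-end peptidase Adamts2 (0.28 ± 0.12) and the enhancer of carboxy-end cleavage, Pcolce (0.31 ± 0.13). Fibril partners had 8 of 9 positive with a median of 0.17, and the lowest p-values belonged to the collagen-binding Sparc (0.14 ± 0.05) and to fibronectin, Fn1 (0.27 ± 0.18). All 10 receptors were positive with a median of 0.13, with the lowest p-values in the integrin chain Itga1 (0.15 ± 0.05) and the collagen uptake receptor Mrc2 (0.21 ± 0.09). Degradation genes had 9 of 10 positive with a median of 0.18, with the lowest p-values in the collagenase Mmp13 (0.44 ± 0.22) and the inhibitor Timp2 (0.29 ± 0.17).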

How the data were processed

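Total RNA of 6 libraries was sequenced in pairs after NEBNext Ultra II preparation, per the labels. The authors deposited estimated counts for each Ensembl gene without normalisation, and 31.6% of these values are not whole. Per the submitters' processing notes, Salmon, StringTie, edgeR and GRCm38 were used, with no roles stated; strand handling in counting is not stated. Columns were matched to libraries by header and label, and 54131 of 54385 rows by GENCODE M21 symbol. Counts were rounded, filtered with filterByExpr (18114 genes kept), scaled by TMM and tested with edgeR 4.0.16 (R 4.3.3) quasi-likelihood, genotype as the only term, Benjamini-Hochberg over all genes at 0.05; SE is the absolute log2 fold change over the square root of F. Fits were tested on simulated data. Levels per kb use the union of annotated exons. Alternatives were RLE factors, library totals, DESeq2 1.42.0, limma 3.58.1 voom, other low-count filters, the replicate number as a block, and each library left out. No 2 libraries of a group agreed within sampling noise (chi-square per degree of freedom 24.1 to 59.6). Same-numbered libraries did not deviate together.

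Members, lists and tests were chosen with earlier results of these data known. Values in every library are given for collagens past the threshold in edgeR or DESeq2, the 4 most abundant tested members of each of 7 classes, and the 3 lowest p-values in each direction; a few further members are named for chain pairs or neighbours. In each pathway list the 2 lowest p-values are named. Serpinh1, Loxl1, Loxl3, Loxl4, Fbn1, Dcn, Thy1 and the fold changes of Ucp1, Elovl3 and Dio2 were added after their values had been seen.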

Additional observations from a re-analysis of the deposited data

How the results depend on the processing

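Of the 31 tested collagens 22 kept the sign of their fold change under all 13 alternatives run, and none of the other 9 had an unadjusted p under 0.05. With RLE factors or library totals alone, 25 collagens were positive. All genes called numbered 1 in edgeR, 229 in DESeq2, 214 with no low-count filter and 2 in limma voom. Collagens past the threshold numbered 0 in edgeR, 6 in DESeq2 and 4 with no low-count filter, where 14 were higher at an unadjusted p under 0.05 against 9; the cause of these differences between tools was not tested. With the replicate number as a block, 3 genes were called, none of them a collagen; correlations of same-numbered libraries' deviations were -0.09, -0.13 and -0.09, so the numbers were not taken to pair libraries.

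Leaving out each library in turn gave 1 to 69 genes called, 0 to 1 collagens called, 23 to 27 positive, 7 to 12 higher and 0 to 1 lower at an unadjusted p under 0.05, and a median log2 fold change of 0.18 to 0.25. The 69 came without ADCY3∆AT replicate 3. Leaving out wild-type replicate 2 or 3 gave 4 or 2 calls.

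The sign turned in 9 genes. Col10a1 was -0.10 in limma voom and -0.076 with the replicate number as a block. With 1 library left out at a time, log2 fold changes ran from -0.41 to 0.31 for Col10a1, -0.084 to 0.11 for Col13a1, -0.039 to 0.66 for Col14a1, -0.20 to 0.074 for Col19a1, -0.22 to 0.028 for Col20a1, -0.17 to 0.23 for Col23a1, -0.093 to 0.24 for Col26a1, -0.46 to 0.18 for Col4a3 and -0.35 to 0.015 for Col7a1.

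Per kb of the longest transcript, mean log2 ratios moved from -0.61 to -1.68 for Col1a1 to Col1a2, from 0.44 to 0.58 for Col4a1 to Col4a2, from 0.25 to -0.27 for Col5a1 to Col5a2, from 1.296 to 0.63 for Col6a1 to Col6a2, from 0.62 to 0.47 for Col6a1 to Col6a3 and from 2.39 to 3.06 for Col3a1 to Col1a1, since the length changes by construction; genotype differences in a ratio do not depend on it. In an alternative chosen after seeing the data, genotype differences in log2 ratios with 1 library left out ran from -0.022 to 0.30 for Col5a1 to Col1a1, from -0.34 to 0.079 for Col3a1 to Col1a1 and from 0.049 to 0.10 for Col6a1 to Col6a3, values with no test. Depth limits the 13 untested genes, which had at most 17 counts in a library.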
